A study of Mus musculus with 22 samples.

Results

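The C/EBP transcription factor family was followed in mouse skin fibroblasts as 4 genes, Cebpa (ENSMUSG00000034957), Cebpb (ENSMUSG00000056501), Cebpd (ENSMUSG00000071637) and Cebpg (ENSMUSG00000056216), out of 55414 genes in the count table. The rows were taken by symbol, and the genes had been selected on measured values of these libraries: earlier differences between the arms on each day were known when the family was chosen. Differences of the 4 genes between the arms are therefore a description with no test. All mice had back-skin surgery with a subcutaneous path from the tail region to the neck. EXP mice then received an expander hydrogel near the neck, and CTRL mice received none. Cells from the skin were depleted of CD31, CD45, CD117 and EpCAM positive cells, and live CD34+ PDGFRα+ fibroblasts were collected by flow cytometry. Of the 22 libraries, 11 were CTRL (4, 3 and 4 on days 1, 2 and 4) and 11 were EXP (5, 3 and 3). Strain, age, genotype and pooling of animals are not given in the sources used here, so p-values measure the spread between these libraries only.

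C/EBP proteins are basic leucine zipper factors that bind DNA as dimers, with each other or with related factors of the ATF group. C/EBPβ and C/EBPδ are known for the acute-phase response, where IL-6 and IL-1 signals raise them and they act on serum amyloid A, haptoglobin and cytokine genes. In the preadipocyte they act early and are followed by C/EBPα and PPARγ, which keep the fat cell genes on. C/EBPγ lacks a transactivation domain, pairs with ATF4 on amino acid response genes and can hold back other family members.

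The proximal promoters of Cebpa, Cebpb and Cebpg are shown as background on where transcription of these genes starts; their part in the measured levels was not tested. They come from RefSeq (build GRCm38.p6), which matched 3 of the 4 members (all but Cebpd), and run from position -100 to -1 before the start site in the direction of the gene. Cebpa lies at chr7:35119193-35119292 on the plus strand, and its capitals mark TATAAA at -30 to -25. Cebpb lies at chr2:167688815-167688914 on the plus strand, and its capitals mark TGACG, the core of the cAMP response element bound by CREB and ATF proteins, at -53 to -49 and -7 to -3. Cebpg lies at chr7:35056567-35056666 on the minus strand, and its capitals mark CCAAT read from the opposite strand, at -89 to -85 and -28 to -24.
Cebpa: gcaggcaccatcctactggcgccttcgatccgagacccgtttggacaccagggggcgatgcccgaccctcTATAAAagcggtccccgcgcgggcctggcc
Cebpb: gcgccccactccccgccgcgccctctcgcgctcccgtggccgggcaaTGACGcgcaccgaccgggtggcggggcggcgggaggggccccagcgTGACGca
Cebpg: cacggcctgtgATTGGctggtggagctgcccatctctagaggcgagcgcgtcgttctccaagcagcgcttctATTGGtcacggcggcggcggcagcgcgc

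In the 250 bases before the start site, both strands searched, 0 of these 3 promoters held the C/EBP motif TTNNGCAAT, 0 held the C/EBP-ATF motif TGATGNAAT and 0 held the STAT motif TTCNNNGAA. Among promoters of 27025 genes, 2.24% held the first, 0.910% the C/EBP-ATF motif and 8.13% the STAT motif. TATAAA was held by 14.3%, TGACG by 19.8% and CCAAT by 37.5% of them. No overlap between motifs was removed. In the lists of target genes below, promoters were found for 17 of 24 acute-phase, 15 of 20 adipogenic and 17 of 21 amino acid response genes. Of the genes with a promoter, Il6, Saa1, Saa2, Cidec, Plin1 (2 sites) and Vldlr held the C/EBP motif, and Aars the C/EBP-ATF motif. The sites of the acute-phase and adipogenic genes among them are shown with 10 bases on each side, again in the direction of the gene and with the motif in capitals. The Il6 site (chr5:30012976-30013004, gene on the plus strand) is read as written. The sites of Saa1 (chr7:46743145-46743173, minus), Saa2 (chr7:46751639-46751667, plus) Cidec (chr6:113434945-113434973, minus) and Plin1 (chr7:79732946-79732974 and chr7:79732817-79732845, minus) lie on the strand opposite to their gene. A match is a description of the letters and not evidence of binding.
Il6: cgacgtcacaTTGTGCAATcttaataagg
Saa1: ctgtgctcccATTGCACAAtgagggagaa
Saa2: ctgtgctcccATTGCACAAtgagggaaaa
Cidec: ggagggctctATTGCTCAAgggcccatgg
Plin1, far site: ccacctctttATTGCCTAAacatccccca
Plin1, near site: tctgagaggcATTGCCCAAgattccctgg

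Total counts ran from 21461294 to 30210204 per library, and 3 counts, taken as the floor of detection, correspond to 0.0993 to 0.140 CPM (counts relative to the total of the library). CPM of named genes are scaled by TMM, a normalization factor per library. All 9 fibroblast markers were detected. Their summed level was 210899 to 284207 CPM in CTRL and 94146 to 171223 CPM in EXP on day 1, 328711 to 408720 and 68866 to 171590 CPM on day 2, and 267550 to 369622 and 83705 to 280655 CPM on day 4. The groups did not overlap on days 1 and 2 and did on day 4. The collagen genes Col1a1, Col1a2 and Col3a1 make up most of this sum, and the markers did not move alike. The edgeR fit called 4, 5 and 3 of the 9 lower in EXP on days 1, 2 and 4, and 1 higher on each day. The higher one was Pdgfra, a gene of the sort, with log2 fold changes of 0.84, 1.71 and 0.79, whereas Cd34, the other, had -1.74, -2.07 and -0.93. The part of these differences in the results below was not tested. In bulk RNA, fewer cells of a type and less RNA per cell cannot be told apart.

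Before the values of the family, 7 libraries have to be set apart. Within groups, 190 genes moved together with Rnf10, a ubiquitin ligase gene (residual correlation above 0.9), and their mean log2 CPM left a gap from 4.11 to 4.81 with 7 libraries above it. These were CTRL replicates 1, 2 and 3 and EXP replicates 1 and 2 of day 1, and CTRL replicates 3 and 4 of day 4. Cebpd (0.93) and Cebpg (0.94) were themselves among the genes moving with Rnf10 over the 22 libraries and were left out of that mean, whereas Cebpa had 0.31 and Cebpb -0.29. The labels record no batch, and whether the difference is technical or biological was not tested. All day 2 libraries and all day 4 EXP libraries lay on the low side, so on day 4 the difference between arms and that between sides are partly the same libraries. Fold changes and shares of the members and counts of the gene lists are given with and without the 7 where these move them.

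Across the 22 libraries Cebpd had the widest range of the family. Its highest library was 64.2 times its lowest, against 7.89 times for Cebpg, 6.29 times for Cebpa and 3.62 times for Cebpb. All 4 members were lowest in the same library, EXP replicate 1 of day 4.

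**Figure D1:**
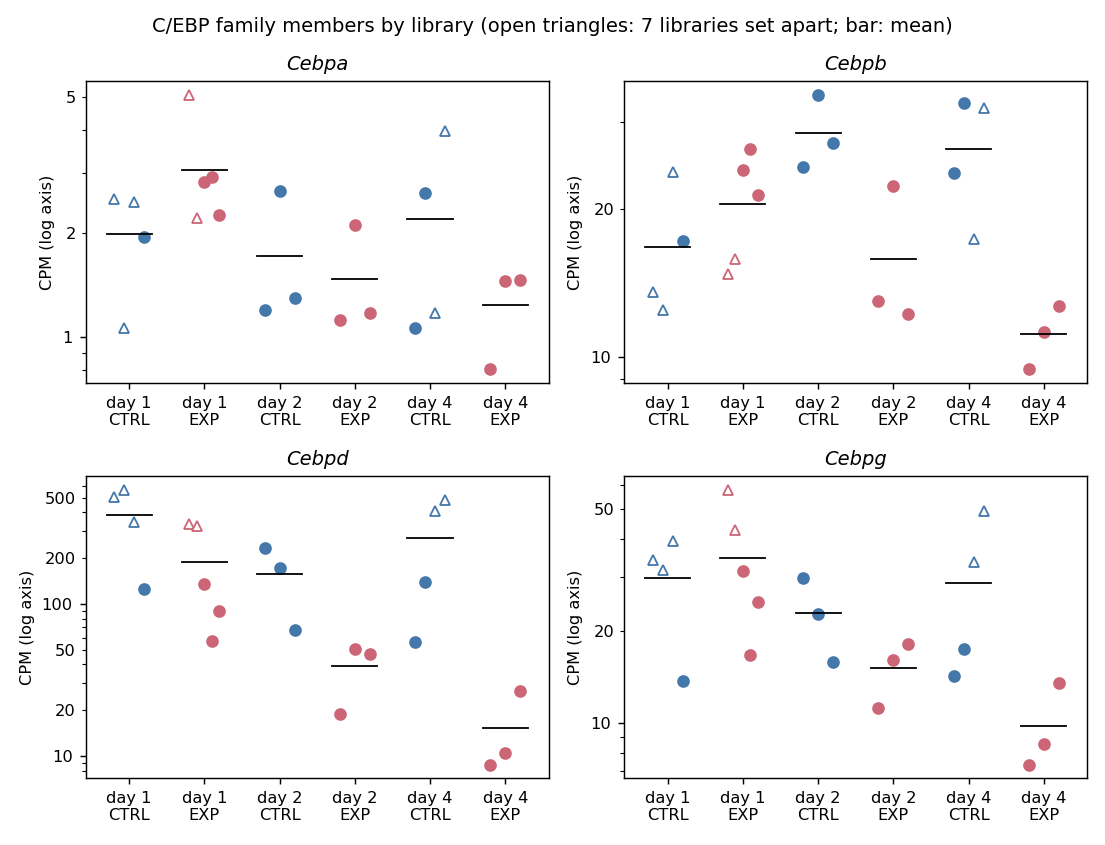
TMM-scaled CPM of the 4 members in each of the 22 libraries on log axes, grouped by day and arm, with the mean of each group as a bar and replicates from left to right. Open triangles are the 7 libraries set apart; for Cebpd all of them lie at 323 CPM or higher, and the 3 EXP libraries of day 4 lie at 8.74 to 26.7 CPM.

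Cebpd encodes C/EBPδ, a member strongly induced by IL-6 type signals. On day 1 it was at 502, 561, 345 and 126 CPM in CTRL replicates 1 to 4 and at 335, 323, 135, 57.2 and 89.4 CPM in EXP replicates 1 to 5. The arms overlapped on that day, and the high values in both arms came from the 5 libraries set apart. On day 2 it was at 232, 171 and 67.6 CPM in CTRL and at 18.8, 50.8 and 46.8 CPM in EXP, with no overlap. On day 4 it was at 56.5, 138, 405 and 480 CPM in CTRL and at 8.74, 10.4 and 26.7 CPM in EXP, again with no overlap. Every EXP library of days 2 and 4 lay below the lowest CTRL library of any day.

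As group means, CTRL held Cebpd at 383 ± 195 (SD, n = 4), 157 ± 83.1 (SD, n = 3) and 270 ± 204 CPM (SD, n = 4) on the successive days. The means of EXP were 188 ± 132 (SD, n = 5), 38.8 ± 17.4 (SD, n = 3) and 15.3 ± 9.90 CPM (SD, n = 3). EXP over CTRL log2 fold changes were -1.03 (SE 0.63), -2.02 (SE 0.80) and -4.15 (SE 0.85) on days 1, 2 and 4. The day 4 difference without the 7 libraries set apart was -2.68 (SE 0.67), over 2 CTRL and 3 EXP libraries. The 7 libraries lay at 323 to 561 CPM and the other 15 at 8.74 to 232 CPM, with no overlap. Within the EXP arm, day 4 differed from day 1 by -3.62 on the log2 scale (SE 0.82), and 2 of the 5 day 1 libraries were among those set apart. In the order of group means, day 4 EXP and day 2 EXP differed by more than the larger SD although their libraries overlapped, and day 2 EXP and day 2 CTRL did not overlap. The neighbours above these overlapped and differed by less than the larger SD.

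Cebpb encodes C/EBPβ, which is controlled at the level of RNA, translation start and phosphorylation. On day 1 it was at 13.6, 12.5, 23.7 and 17.2 CPM in CTRL and at 14.7, 15.8, 24.0, 26.5 and 21.3 CPM in EXP, and the arms overlapped. The day 2 values were 24.3, 34.1 and 27.2 CPM in CTRL and 13.0, 22.2 and 12.2 CPM in EXP. On day 4 they were 23.6, 32.8, 17.4 and 32.1 CPM in CTRL and 9.41, 11.2 and 12.7 CPM in EXP. The arms did not overlap on either of these days, and the 7 libraries set apart (12.5 to 32.1 CPM) lay inside the range of the other 15 (9.41 to 34.1 CPM).

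The log2 fold change of Cebpb was 0.29 (SE 0.24) on day 1, -0.85 (SE 0.30) on day 2 and -1.25 (SE 0.28) on day 4. The day 4 value without the 7 libraries was -1.35 (SE 0.27). From day 1 to day 4 the arms moved apart from both sides: the log2 difference was 0.66 (SE 0.26) within CTRL and -0.88 (SE 0.27) within EXP. Mean levels went from 16.7 ± 5.08 (SD, n = 4) to 26.5 ± 7.35 CPM (SD, n = 4) in CTRL and from 20.5 ± 5.09 (SD, n = 5) to 11.1 ± 1.63 CPM (SD, n = 3) in EXP. Neighbouring groups in the order of means (day 4 EXP, day 2 EXP, day 1 CTRL, day 1 EXP, day 4 CTRL, day 2 CTRL) overlapped and differed by less than the larger SD.

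Cebpg encodes C/EBPγ. On day 1 it was at 34.2, 31.8, 39.3 and 13.7 CPM in CTRL and at 57.8, 42.7, 31.5, 16.6 and 24.9 CPM in EXP. The day 2 values were 29.9, 22.7 and 15.9 CPM in CTRL and 11.2, 16.0 and 18.2 CPM in EXP. On day 4 they were 14.3, 17.5, 33.7 and 49.3 CPM in CTRL and 7.32, 8.57 and 13.5 CPM in EXP. The arms overlapped on days 1 and 2 and did not on day 4, where the gap between 13.5 and 14.3 CPM was narrow. The 2 high CTRL libraries of day 4 are the ones set apart.

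The log2 fold change of Cebpg was 0.22 (SE 0.38) on day 1, -0.59 (SE 0.47) on day 2 and -1.55 (SE 0.46) on day 4. Leaving out the 7 libraries set apart gave 0.83 (SE 0.45) on day 1 and -0.70 (SE 0.34) on day 4. Among the day 1 libraries set apart, Cebpg was at 42.7 to 57.8 CPM in EXP and 31.8 to 39.3 CPM in CTRL. Cebpd went the other way there, at 323 to 335 CPM in EXP and 345 to 561 CPM in CTRL. Among the other day 1 libraries, Cebpg was at 16.6 to 31.5 CPM in EXP and 13.7 CPM in the single CTRL library. Cebpd of that CTRL library, at 126 CPM, lay inside the EXP range of 57.2 to 135 CPM. Neighbouring groups in the order of Cebpg means (day 4 EXP, day 2 EXP, day 2 CTRL, day 4 CTRL, day 1 CTRL, day 1 EXP) all overlapped. The lowest 3 groups were separated by steps larger than the larger SD.

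Cebpa encodes C/EBPα, the factor of the mature fat cell and of granulocyte differentiation, and had the lowest levels of the family per kb of exon. It was at 2.51, 1.06, 2.47 and 1.95 CPM in CTRL and 5.06, 2.22, 2.83, 2.93 and 2.26 CPM in EXP on day 1. Day 2 gave 1.19, 2.66 and 1.30 CPM in CTRL and 1.12, 2.12 and 1.18 CPM in EXP. Day 4 gave 1.06, 2.62, 1.17 and 3.98 CPM in CTRL and 0.805, 1.46 and 1.46 CPM in EXP. The arms overlapped on every day, and its libraries held between 22 and 145 counts of the gene. Days 1, 2 and 4 gave log2 fold changes of 0.61 (SE 0.41), -0.22 (SE 0.51) and -0.83 (SE 0.48), and no neighbouring groups in the order of means differed by more than the larger SD.

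**Figure D2:**
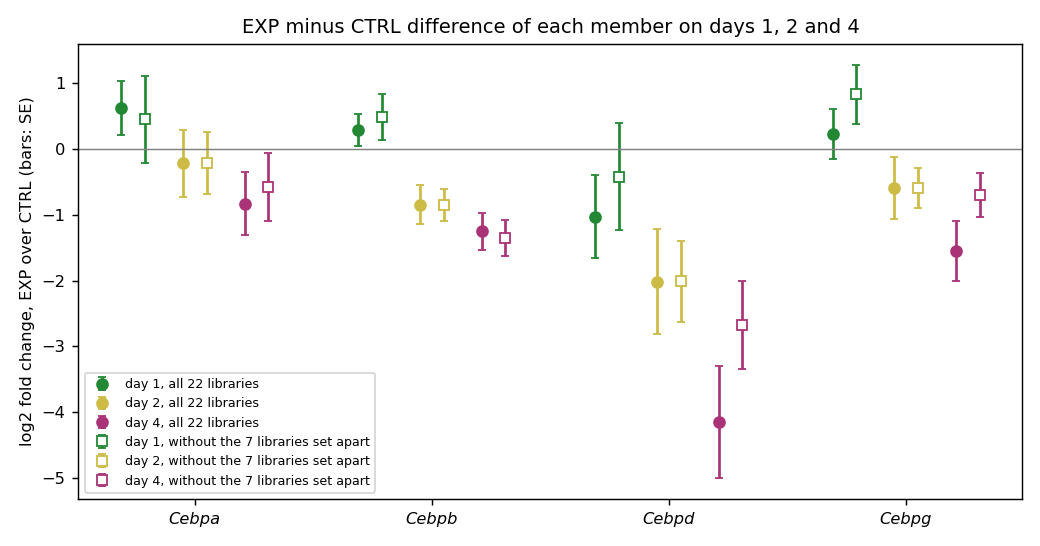
Log2 fold change of EXP over CTRL for each member on days 1, 2 and 4, with bars for the SE, in the fit to all 22 libraries (filled circles) and without the 7 libraries set apart (open squares). The day 4 difference goes from -4.15 to -2.68 for Cebpd and from -1.55 to -0.70 for Cebpg, and for Cebpb it is -1.25 and -1.35.

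In the edgeR quasi-likelihood fit, the members passing an adjusted p of 0.05 were 0 of 4 on day 1, 0 of 4 on day 2 and 3 of 4 on day 4, all 3 lower in EXP (Cebpb, Cebpd and Cebpg). Over all 17554 genes tested, 28.6% were called on day 1, 13.4% on day 2 and 22.5% on day 4, with 14.7%, 5.71% and 9.66% lower in EXP and 13.9%, 7.72% and 12.8% higher. The members whose arms did not overlap were 0 on day 1, 2 on day 2 (Cebpb and Cebpd) and 3 on day 4, against 23.9%, 39.3% and 25.5% of all genes. Since these contrasts chose the members, nothing is read from the counts. Cebpg lost its day 4 call without the 7 libraries, without CTRL replicate 4, without EXP replicate 1 and without EXP replicate 2, with log2 fold changes of -1.16 to -1.84 over the fits that leave out 1 library of day 4. Cebpb and Cebpd kept their calls in each of those fits. All these fits reuse libraries on which the members were chosen, so a kept call is no independent evidence.

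Levels can be compared between genes only per length, as CPM divided by the exon length in kb. On this scale Cebpd took 82.4% of the summed level of the 4 members in day 1 CTRL, 60.6% in day 2 CTRL and 67.4% in day 4 CTRL. In EXP its share was 64.0%, 41.7% and 28.0% on days 1, 2 and 4. The share of Cebpb was 12.1%, 32.0% and 25.9% in CTRL and 25.3%, 44.4% and 55.8% in EXP. The share of Cebpg lay between 4.65% and 12.7%, and that of Cebpa between 0.807% and 3.49%.

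The shares moved with the libraries set apart. Without them Cebpb took 40.6% in day 4 CTRL, from 34.7% to 46.6% over 2 libraries, and its 3 EXP libraries, at 45.5% to 61.4%, overlapped these. The share of Cebpd in day 4 CTRL was then 51.7% (44.7% to 58.8%), and the EXP libraries, at 22.6% to 38.5%, lay below. On day 1 the single other CTRL library had Cebpd at 69.7% and Cebpb at 23.7%, and the other 3 EXP libraries had means of 52.6% and 35.9%.

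Which gene came first in EXP on day 4 depends on the length used, because the exon models differ (1.504 kb for Cebpb, 2.636 kb for Cebpa, 3.746 kb for Cebpd and 5.621 kb for Cebpg). With the shortest coding transcript of each gene (0.914 kb for Cebpg), the day 4 EXP shares were 47.0% for Cebpg, 33.6% for Cebpb and 16.8% for Cebpd. By means over all libraries Cebpd still led in every CTRL group, with 66.7%, 45.8% and 52.5% on days 1, 2 and 4. Exons of the 4 genes overlap exons of other genes in the GENCODE M21 annotation: Cebpb with Tmem189, Cebpd with Spidr, Cebpa with Gm45091, and Cebpg with Gm44836 and Gm45095. Strandedness is not given in the sources used here, so reads from these overlaps cannot be told apart.

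**Figure D3:**
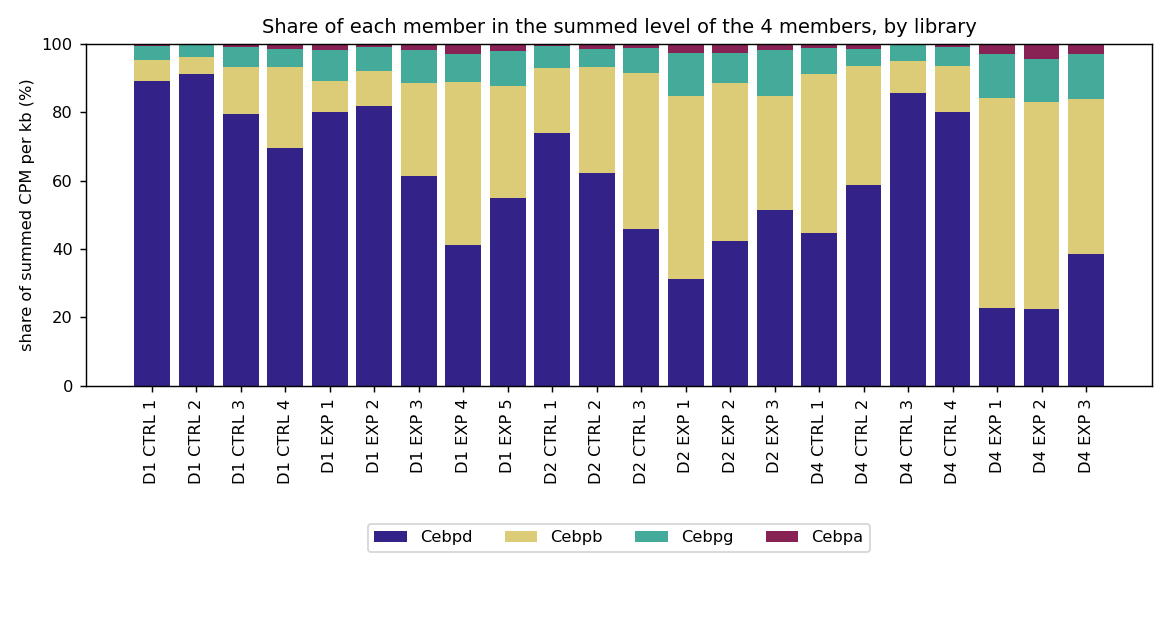
Share of each member in the summed level of the 4 members (CPM per kb of exon, in percent) for each of the 22 libraries, with bars from 0 to 100%. Over all libraries of the group the mean Cebpd share is 82.4% in day 1 CTRL and 28.0% in day 4 EXP, where the mean Cebpb share is 55.8%.

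The ratio of 2 members within a library leaves out whatever scales both alike. The log2 ratio of Cebpg to Cebpd, per kb, lay between -4.73 and -3.72 in CTRL and between -3.51 and -2.37 in EXP on day 1. On day 2 it lay between -3.54 and -2.67 in CTRL and -2.25 and -1.32 in EXP, and on day 4 between -4.17 and -2.57 in CTRL and -1.56 and -0.84 in EXP. EXP libraries lay above CTRL libraries of their day with no overlap on all 3 days. The mean difference was 1.35 on day 1, 1.40 on day 2 and 2.45 on day 4.

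On day 1 the order was the same on both sides of the library split, which divides the same libraries and is no separate evidence. Among the libraries set apart, CTRL had -4.73 to -3.72 and EXP -3.51 to -3.12; among the others, the single CTRL library had -3.78 and the EXP libraries -2.68 to -2.37. The within-group SD of the ratio was 0.52 on the log2 scale, against 1.08 for Cebpd alone and 0.64 for Cebpg alone. The day 4 CTRL libraries set apart still had lower ratios (-4.17 to -3.87) than the other 2 (-3.57 to -2.57), so the split is reduced in the ratio and not removed. The ratio of Cebpb to Cebpd overlapped between the arms on day 1 (-4.18 to -1.56 in CTRL, -3.19 to 0.21 in EXP) and on day 2 (-1.94 to 0.0018 in CTRL, -0.62 to 0.79 in EXP). On day 4 it lay between -3.23 and 0.06 in CTRL and between 0.24 and 1.42 in EXP, with no overlap. The ratio of Cebpb to Cebpg overlapped between the arms on all 3 days. That of Cebpb to Cebpa overlapped on days 1 and 4 and did not on day 2. The ratio of Cebpg to Cebpd was singled out among these after its values were seen and carries no test. How often ratios of other genes separate the arms was not counted.

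**Figure D4:**
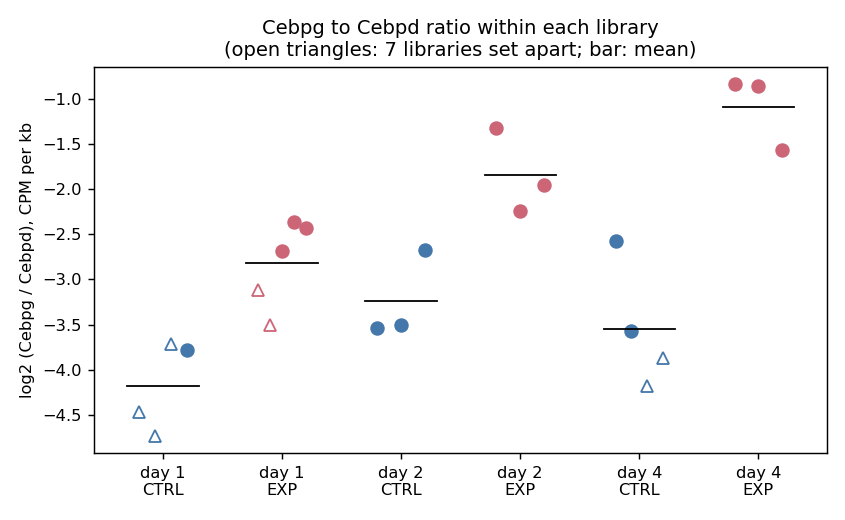
Log2 ratio of Cebpg to Cebpd (CPM per kb) in each library by day and arm, with group means as bars and the 7 libraries set apart as open triangles. EXP libraries lie above the CTRL libraries of their day on days 1, 2 and 4, with mean differences of 1.35, 1.40 and 2.45.

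The relatives and dimer partners of the family came next. Of 9 such genes, 8 could be tested, and Cebpe, the granulocyte member, had at most 1 count in any library. On day 1, 2 of the 8 rose and 2 fell; on day 2, 0 rose and 4 fell; on day 4, 0 rose and 5 fell. Their median log2 fold change was -0.03, -0.90 and -0.67, against 0.02, 0.02 and 0.03 over all genes. The falls are 25%, 50% and 62.5% of the 8, beside 14.7%, 5.71% and 9.66% of all genes. Without the 7 libraries set apart, 0, 3 and 2 fell on the 3 days and 0 rose on any. On day 1 that fit has a single CTRL library, assumed to vary like the other groups. Over all genes it called 869 lower on day 2 and 452 on day 4, from 1003 and 1695 with all 22 libraries. The falls also rest on single libraries: without CTRL replicate 2, EXP replicate 1 or EXP replicate 3 of day 2, 1, 2 and 2 genes fell on that day. Leaving out CTRL replicate 2 or 4 or EXP replicate 2 of day 4 left 3 falls on day 4, and leaving out EXP replicate 1 left 2. On day 1, 1 rose without CTRL replicate 1, 2 or 3 or EXP replicate 3, and 1 fell without any of these or EXP replicate 1 or 2. The effect depended on the day for 3 of the 8, for 5 without EXP replicate 3 of day 4, and for 0 without the 7 libraries.

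Atf3, an ATF family gene induced by stress, fell on all 3 days. It was at 835, 706, 904 and 997 CPM in CTRL and 378, 431, 430, 428 and 287 CPM in EXP on day 1. The day 2 values were 1255, 1900 and 1331 CPM in CTRL and 234, 305 and 330 CPM in EXP. The arms did not overlap on these days, and did on day 4, with 679 to 1027 CPM in CTRL and 264 to 741 CPM in EXP. The decreases were -1.14 (SE 0.23), -2.37 (SE 0.29) and -0.78 (SE 0.26) on the log2 scale on days 1, 2 and 4, with edgeR adjusted p of 0.000920, 6.03e-05 and 0.0380.

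Atf4, the amino acid response factor that dimerizes with C/EBPγ, rose on day 1 and fell on days 2 and 4. It was at 200, 204, 220 and 261 CPM in CTRL and 288, 296, 394, 285 and 294 CPM in EXP on day 1, and at 329, 394 and 334 CPM in CTRL and 223, 257 and 202 CPM in EXP on day 2. The arms did not overlap on either day. The log2 fold change was 0.49 (SE 0.17), -0.63 (SE 0.21) and -0.56 (SE 0.20) on days 1, 2 and 4, and the edgeR adjusted p was 0.0365, 0.0475 and 0.0441. The effect depended on the day (adjusted p 0.0134), as it did for 8.82% of all genes tested.

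Atf5, a close relative of Atf4, fell on day 2 (-1.61, SE 0.36) and day 4 (-1.17, SE 0.34), with edgeR adjusted p of 0.00619 and 0.0192, and had -0.11 (SE 0.29) on day 1. The BATF factors dimerize with JUN proteins. Batf fell on day 2 (-1.80, SE 0.45) and day 4 (-2.20, SE 0.44), and Batf2 on day 1 (-1.19, SE 0.41) and day 4 (-2.16, SE 0.51). Batf3 did not pass on any day, with log2 values of 0.93, 1.29 and 1.75 (SE 0.80 to 1.02). Ddit3, which encodes the stress-induced inhibitor CHOP, had 0.05, -0.58 and -0.39 (SE 0.19 to 0.24) and did not pass on any day. Cebpz, a CCAAT-binding protein that is not a leucine zipper factor, rose on day 1 (0.71, SE 0.16, adjusted p 0.00207).

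The 24 genes upstream of the family are cytokine receptors, transcription factors, kinases and turnover factors. On day 1, 8 rose and 5 fell, on day 2, 3 rose and 2 fell, and on day 4, 1 rose and 6 fell, with median log2 fold changes of 0.13, -0.15 and -0.35. The rises are 33.3%, 12.5% and 4.17% of the list, beside 13.9%, 7.72% and 12.8% of all genes, and the falls 20.8%, 8.33% and 25%, beside 14.7%, 5.71% and 9.66%. Without the 7 libraries set apart, 3 and 0 rose and 2 and 1 fell on days 2 and 4, and day 1 has a single CTRL library there. The falls on day 1 were 2 without CTRL replicate 2 and 3 without CTRL replicate 3, EXP replicate 2 or EXP replicate 4. On day 2, 1 fell without any of the 3 CTRL replicates or EXP replicate 1 or 3. On day 4, 1 fell without EXP replicate 1, 2 without CTRL replicate 4 and 3 without EXP replicate 2, while 0 rose without CTRL replicate 3 or EXP replicate 1 and 2 rose without CTRL replicate 4 or EXP replicate 2.

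Il1r1, the IL-1 receptor, rose on all 3 days. It was at 185, 181, 209 and 119 CPM in CTRL and 503, 551, 379, 364 and 376 CPM in EXP on day 1, with no overlap, and its log2 fold change was 1.32 (SE 0.22), 1.50 (SE 0.26) and 0.85 (SE 0.24) on days 1, 2 and 4, with edgeR adjusted p of 0.000189, 0.00106 and 0.0160. Il6ra, the ligand-binding IL-6 receptor chain, fell on day 4 (-1.27, SE 0.44, adjusted p 0.0433) and had -0.91 and -1.38 on days 1 and 2. Other receptor chains of the IL-6 family in the list did not fall. Osmr rose on day 1 (0.79, SE 0.19) and day 2 (0.99, SE 0.23). Lifr also rose on day 1 (1.08, SE 0.23) and day 2 (1.04, SE 0.28). Neither was called on day 4, with 0.47 and 0.57, and Il6st was not called on any day.

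Nfkb1, an NF-κB subunit gene, rose on day 1 (1.38, SE 0.26, edgeR adjusted p 0.000536) and had 0.10 and -0.20 on days 2 and 4 (adjusted p for dependence on the day 0.0223). It was at 52.6 to 88.2 CPM in CTRL and 128 to 294 CPM in EXP on day 1. Among Krüppel-like factors of fat cell differentiation, Klf4 acts upstream of Cebpb, and Klf5 works with C/EBPβ and C/EBPδ. Klf4 fell on day 2 (-1.69, SE 0.35, adjusted p 0.00398), from 442, 777 and 541 CPM in CTRL to 120, 284 and 144 CPM in EXP. Klf5 fell on day 4 (-1.24, SE 0.33, adjusted p 0.0120).

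Many acute-phase and inflammatory genes known as C/EBPβ and C/EBPδ targets rose on each of the 3 days. On days 2 and 4, RNA of both factors was lower in every EXP library than in any CTRL library of the day. Of 23 tested genes, 13 rose on day 1, 12 on day 2 and 12 on day 4, and 0 fell, where 13.9%, 7.72% and 12.8% of all genes rose. Their median log2 fold change was 1.88, 2.61 and 2.01, and 2.30 on day 2 with a gene at the floor of 3 counts set to its bound. The part of C/EBP proteins in the rise was not tested. Without the 7 libraries set apart, 12 and 10 rose on days 2 and 4, where 1278 and 632 of all genes rose. With all 22 libraries, 1356 and 2248 of all genes rose on those days. Day 1 has a single CTRL library without the 7. With only the day 1 libraries set apart, 13 rose on day 1. The effect depended on the day for 2 genes, for 5 without EXP replicate 3 of day 4, for 1 without CTRL replicate 2 or 3 of day 4, and for 0 without the 7. Many of these genes were known from earlier results of these libraries, so the list is not independent evidence of its direction.

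Csf3, the granulocyte growth factor, was at 4.04, 0.635, 4.61 and 1.72 CPM in CTRL and 142, 362, 144, 27.8 and 58.1 CPM in EXP on day 1. It stayed separate on day 4, with 0 to 2.08 CPM in CTRL and 38.4 to 329 CPM in EXP. Its log2 fold change was 5.73 (SE 0.93), 7.32 (SE 1.24) and 7.45 (SE 1.04) on days 1, 2 and 4. Lcn2, the iron-scavenging lipocalin, rose by 5.37 (SE 1.03), 8.08 (SE 1.51) and 5.15 (SE 1.07) on the log2 scale. The neutrophil chemokine Cxcl5 (4.56, 6.93 and 7.62) and the collagenase Mmp13 (5.16, 7.58 and 6.68) also rose on all 3 days, with edgeR adjusted p of 0.00132 or less.

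The acute-phase genes Saa2 and Hp were called on different days, and the 2 genes were not compared by a test. Saa2, whose promoter site is shown above, rose on day 1 (6.02, SE 1.07, edgeR adjusted p 0.000451), from 1.40, 1.52, 3.86 and 2.95 CPM in CTRL to 57.4, 156, 441, 71.0 and 71.1 CPM in EXP. On days 2 and 4 it had 3.78 and 1.59 and did not pass (adjusted p 0.0567 and 0.251), though its arms did not overlap on day 2. Hp, haptoglobin, had 2.36 (adjusted p 0.0723) on day 1 and rose on day 2 (7.37, SE 1.46) and day 4 (8.89, SE 1.35). For Hp the effect depended on the day (adjusted p 0.0168); for Saa2 that test gave an adjusted p of 0.105. Saa1, the neighbouring serum amyloid gene, rose on day 1 (5.36, SE 0.90) and day 2 (4.68, SE 1.06) and had 2.11 on day 4. Il6, the IL-6 gene, had 0.62, 0.09 and 0.44 and did not pass on any day (edgeR adjusted p 0.121, 0.897 and 0.351).

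Markers of white blood cells did not move alike. The 8 neutrophil markers, of cells that also express Lcn2, summed to 0 to 0.537 CPM in CTRL and 0.365 to 1.01 CPM in EXP on day 1, 0.0898 to 0.547 and 0.747 to 5.19 CPM on day 2, and 0.168 to 0.346 and 0.937 to 3.06 CPM on day 4. Of the 2 that could be tested, S100a8, a calcium-binding protein gene, rose on all 3 days (edgeR adjusted p 0.0131, 0.0165 and 0.00907), from at most 0.0522 CPM in any CTRL library, under the floor of 3 counts, to at most 0.690, 4.74 and 2.31 CPM in EXP on days 1, 2 and 4. Mpo, the other, was not called. Cxcr2 was at 0 in every library. The 8 macrophage markers summed to 39.9 to 88.6 CPM in CTRL and 34.0 to 50.6 CPM in EXP on day 1, 109 to 163 and 59.2 to 84.8 CPM on day 2, and 107 to 147 and 40.0 to 129 CPM on day 4. Of the 3 that could be tested, Cd68 rose on days 1 and 2 (1.36 and 1.86), Csf1r fell on day 1 (-1.12, adjusted p 0.0174) and Lyz2 was not called. In day 2 CTRL, Csf1r alone was at 102 to 158 CPM, most of the macrophage sum. That sum was lower in EXP on day 2, with no overlap. The leukocyte gene Ptprc was at or below 0.243 CPM in every library. The part of such cells in the acute-phase rises was not tested.

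Of 19 tested adipogenic genes, known as C/EBPα and PPARγ targets, 3 rose and 1 fell on day 1, 6 rose on day 2 and 10 rose on day 4. The effect depended on the day for 9 of them. Median log2 fold changes were -0.36, 1.01 and 1.28, and -0.30 on day 1 with genes at the floor set to their bounds. The rises are 15.8%, 31.6% and 52.6% of the 19, beside 13.9%, 7.72% and 12.8% of all genes, and the fall on day 1 is 5.26%, beside 14.7%. Cebpa, at the head of this program in fat cells, had log2 values of 0.61, -0.22 and -0.83 on days 1, 2 and 4 and was not called on any of them. Pparg, the PPARγ gene and itself in the list, rose on day 2 (2.75, SE 0.83) and day 4 (1.96, SE 0.70). The edgeR adjusted p was 0.0314 and 0.0487. On day 1 Pparg had -1.28 and was not called, and its mean level was 2.23 to 3.25 CPM over the days. Days 2 and 4 gave 6 and 1 rises in the list without the 7 libraries, where day 1 has a single CTRL library. On day 2, 1 rose without EXP replicate 1, 2 without CTRL replicate 3 and 3 without CTRL replicate 1 or 2. On day 1, 4 fell without CTRL replicate 2 or EXP replicate 2, 3 without CTRL replicate 1 and 2 without CTRL replicate 3. Dependence on the day was called for 5 without CTRL replicate 3 of day 1 and for 2 without the 7 libraries.

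Fabp4, the fatty acid binding protein of adipocytes, was at 0.249, 0.626 and 0.629 CPM in CTRL and 35.1, 4.60 and 12.1 CPM in EXP on day 2. The day 4 values were 1.11, 1.33, 0.251 and 1.34 CPM in CTRL and 41.8, 64.1 and 160 CPM in EXP. It rose by 5.09 (SE 1.20) on day 2 and 6.46 (SE 1.06) on day 4 on the log2 scale (edgeR adjusted p 0.00925 and 0.000755). Cidec, a lipid droplet protein, was at most at 0.104 CPM in CTRL on days 2 and 4, under the floor of 3 counts. It was at 17.6, 1.02 and 1.14 CPM in EXP on day 2, at least 53.5-fold higher on average, and at 0.617, 13.7 and 59.3 CPM on day 4, at least 215-fold higher. Most of these means came from a single library each. Cd36, a fatty acid transporter, rose on day 2 (4.85, SE 1.48), and Cfd, the adipocyte serine protease adipsin, on day 4 (8.79, SE 1.84).

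The fatty acid synthase Fasn behaved otherwise and rose modestly on all 3 days, by 0.77 (SE 0.18), 1.01 (SE 0.22) and 0.68 (SE 0.20). Lpl, lipoprotein lipase, fell on day 1 (-1.98, SE 0.50, edgeR adjusted p 0.00617) and had 1.43 and 1.28 on days 2 and 4. The sum over 8 adipocyte markers moved with these genes: 0.249 to 3.13 CPM in CTRL and 8.02 to 89.9 CPM in EXP on day 2, and 0.545 to 2.32 CPM and 43.7 to 511 CPM on day 4. Plin1, Retn and Lep were at 0 in all CTRL libraries of both days. Of the 6 adipocyte markers tested, 0 were called on day 1, 2 rose on day 2 and 6 rose on day 4. On day 1 the sum was 1.99 to 25.3 CPM in CTRL and 0.907 to 9.65 CPM in EXP. Adipogenic and marker lists share genes, and the part of fat cells in the sort was not tested.

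Amino acid response genes are the setting in which C/EBPγ and ATF4 act as a pair. Of 21 genes, 15 rose and 0 fell on day 1, 7 rose and 0 fell on day 2, and 4 rose and 1 fell on day 4, with median log2 fold changes of 0.99, 0.35 and 0.23. The rises are 71.4%, 33.3% and 19.0% of the 21, beside 13.9%, 7.72% and 12.8% of all genes. The effect depended on the day for 7 of them. Atf4 rose on day 1 as given above, and Cebpg had 0.22 (SE 0.38). Rises numbered 7 and 3 on days 2 and 4 without the 7 libraries, where day 1 has a single CTRL library. With only the day 1 libraries set apart, 11 rose on day 1. On day 2, 2 rose without EXP replicate 1 and 3 without CTRL replicate 2. On day 4, 7 fell without EXP replicate 3 and 0 without CTRL replicate 2, EXP replicate 1 or EXP replicate 2; 1 fell on day 1 without CTRL replicate 3. The day dependence was called for 1 gene without the 7 libraries.

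Psat1, an enzyme of serine synthesis, rose on all 3 days by 1.54 (SE 0.23), 0.93 (SE 0.28) and 1.15 (SE 0.25). It was at 16.6, 25.6, 22 and 17.2 CPM in CTRL and 57.9, 73.3, 47.9, 60.8 and 55.2 CPM in EXP on day 1, with no overlap. Chac1, which degrades glutathione, rose on day 1 (2.39, SE 0.45, edgeR adjusted p 0.000684) and had 0.90 and -1.06 on days 2 and 4. Slc7a11, the cystine transporter, rose on days 1 and 2 by 1.58 (SE 0.39) and 2.10 (SE 0.47). Stc2, a secreted glycoprotein, rose on day 2 (1.99, SE 0.42), and Wars, the tryptophan tRNA ligase, on days 2 and 4 (0.88, SE 0.21, and 1.01, SE 0.20).

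The genes picked by the naming rule given below were fitted again without the 7 libraries set apart. On day 2, 17 of 19 calls (all but Atf4 and Cidec) were kept, and on day 4, 8 of 19. With a single CTRL library left on day 1, only effect sizes are given for it. Log2 fold changes there went from 6.02 to 6.04 for Saa2, 5.37 to 5.66 for Lcn2 and 2.39 to 2.65 for Chac1. They shrank from 1.58 to 0.85 for Slc7a11 and from -1.19 to -0.61 for Batf2. The SE of Saa2 went from 1.07 to 1.95. The 8 of day 4 were Atf5, Batf, Csf3, Mmp13, Hp, Cxcl5, Fabp4 and Wars.

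**Figure D5:**
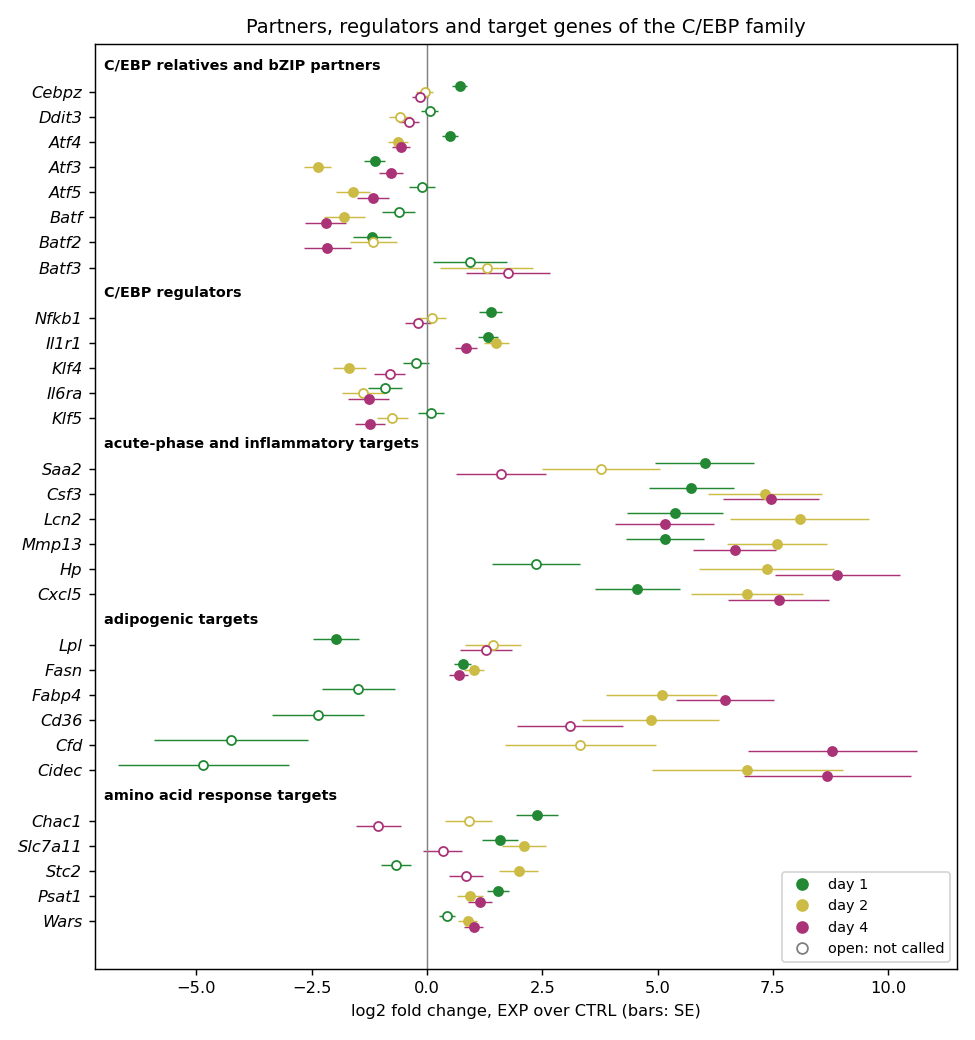
Log2 fold change of EXP over CTRL, with bars for the SE, of the relatives and partners of the C/EBP family and of the genes named from the 4 lists of regulators and targets, on days 1, 2 and 4; filled points passed an edgeR adjusted p of 0.05. Atf3 lies below 0 on all 3 days (-1.14, -2.37 and -0.78), and Csf3 above 0 on all 3 (5.73, 7.32 and 7.45); values of Cidec are fitted against CTRL libraries under the floor of 3 counts on days 2 and 4.

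The genes whose level followed each member most closely were found by the root mean square difference of centred log2 CPM over the 22 libraries, among 9821 genes whose mean reached 5 CPM. Closest to Cebpb were Twist1 (0.25), a mesenchymal transcription factor gene, Fbxo33 (0.26) and Lrig1 (0.27). Nbl1 (0.51), which encodes a secreted BMP antagonist, Ppp1ccb (0.56) and Aplp1 (0.59) were closest to Cebpd. For Cebpg they were Rab22a (0.23), Maco1 (0.24) and Wtap (0.26), and for Cebpa Arl8a (0.39), Rnf187 (0.40) and Zswim8 (0.41). The spread of each member around its own mean on the same scale was 0.54 for Cebpb, 1.76 for Cebpd, 0.79 for Cebpg and 0.65 for Cebpa. These points share libraries, groups and the split described above, and the likeness is a description.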

How the data were processed

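Raw counts per Ensembl gene were deposited for 22 libraries in 1 table, per the file header, and all its columns match labelled libraries. Per the submitters' processing notes reads were trimmed with Trimmomatic and the build was mm39. The aligner, the counter, the annotation release and strandedness are not given in the sources used here. RNA came from sorted cells through an ultra-low-input protocol, per the labels' protocols. Symbols (52081 of 55414 identifiers) and exon lengths came from GENCODE M21, and promoters from RefSeq on GRCm38.p6, whose coordinates were not mixed with the table's build.

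Counts were analysed in R 4.3.3 and edgeR 4.0.16: filterByExpr on the 6 groups (minimum count 10, 17554 genes kept), TMM, robust glmQLFit and glmQLFTest over all 22 libraries with a mean per group (16 residual degrees of freedom), and Benjamini-Hochberg adjustment over all genes tested, called under 0.05. Each day's EXP and CTRL were contrasted, and the differences of that effect between days were tested jointly. The SE of a log2 fold change is its size divided by the square root of F. The fits were first tested on simulated data. The floor of 3 counts covers counting error alone, because PCR reads that carry no molecular identifier need not be separate molecules.

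The members and lists were chosen with earlier results of these data known, and the lists came from textbook knowledge. Named genes were the members, every relative or partner, from each other list and day the 2 called genes with the largest absolute fold change and a mean of at least 5 CPM, and the 3 genes most like each member (log2 CPM with a prior count of 2). Il6, Saa1, Plin1, Vldlr and Aars were named for a promoter motif, and Osmr, Lifr, Il6st and Pparg beside Il6ra and Cebpa. All of these were added after their values were seen and are not among the 43 named genes examined below. Others named are cell type markers. Ddit3 has 2 identifiers, and the one with counts was used. Alternatives were DESeq2 1.42.0 as test and as source of size factors, library totals without TMM, no filter, a replicate block, the library split as a covariate and each library left out. Chosen after seeing the data were fits without the 7 libraries set apart, with the day 1 libraries set apart only, and with the libraries of the block fit without the block.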

Additional observations from a re-analysis of the deposited data

Results flagged for a closer look

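The 4 members and the 42 of 43 named genes with enough counts for the fit gave 138 groups of 4 or 5 libraries. Of these, 19 held a library far from the others of its group, where chance gives about 1 in 20 (6.9). Such groups come from CTRL and EXP of day 1 and CTRL of day 4, which all hold libraries from both sides of the split. The genes share these libraries, so the groups are not independent and 19 is not read as an excess. In the family itself there was 1: Cebpa was at 5.06 CPM in EXP replicate 1 of day 1, and the other 4 EXP libraries were at 2.22 to 2.93 CPM. That library is among the 7 set apart, as is EXP replicate 2 of day 1, which had the lowest Cebpa of the group (2.22 CPM).

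Of the partners, Atf4 was at 394 CPM in EXP replicate 3 of day 1 (others 285 to 296), Atf5 at 12.9 CPM in CTRL replicate 1 of day 1 (others 9.92 to 10.4), and Batf3 at 2.46 CPM in EXP replicate 2 of day 1 and 0.562 CPM in CTRL replicate 4 of day 4. Il1r1 was low in CTRL replicate 3 of day 4, at 142 CPM (others 251 to 257). Among targets, Saa2 was at 441 CPM in EXP replicate 3 of day 1 and at 9.52 CPM in CTRL replicate 4 of day 4, Lcn2 at 4.37 CPM in CTRL replicate 1 of day 1, and Hp (237 CPM) and Lpl (360 CPM) in EXP replicate 2 of day 1. In CTRL replicate 4 of day 1, Cfd was at 7.77 CPM and Cidec at 2.99 CPM, where the other CTRL libraries were at 0.381 CPM or lower. Cidec was at 0.0967 CPM in CTRL replicate 1 of day 4, and Stc2 at 6.72 CPM in CTRL replicate 3 of day 1 (others 19.0 to 21). Of the genes most like a member, Rnf187 was at 31.5 CPM in EXP replicate 1 of day 1 and 23.8 CPM in CTRL replicate 4 of day 4, and CTRL replicate 4 of day 1 held Fbxo33 at 20.8 CPM and Rab22a at 27.9 CPM.

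The EXP effect differed between days by the joint edgeR test for 12 named genes. The adjusted p was 0.0363 for Cebpz, 0.0134 for Atf4 and 0.0249 for Atf3 among the relatives and partners, and 0.0223 for Nfkb1. It was 0.0168 for Hp, 0.0111 for Lpl, 0.00187 for Fabp4, 0.0204 for Cd36, 0.00721 for Cfd and 0.00499 for Cidec. For Chac1 it was 0.0101 and for Stc2 0.00886. Over all genes, 8.82% passed this test.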

How the results depend on the processing

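Of 188 recomputed fold changes of the members, 181 moved by less than the replicate SD and 7 by more, and 124 of 662 recomputed counts moved by over 1.5 times. The cause of each move was not tested. Without the 7 libraries set apart, Cebpd had -2.68 and Cebpg -0.70 on day 4, and -2.79 and -0.77 when the split entered as a covariate. With the day 1 libraries set apart only, Cebpb had -0.12 on day 1. Library totals without TMM gave -0.41 for Cebpb and -0.13 for Cebpg on day 2, and turned Cebpa from -0.22 to 0.20. They moved the median of all genes to 0.21, 0.49 and 0.36 on days 1, 2 and 4, and the share of called genes that were higher in EXP to 66.2%, 90.5% and 80.7%, from 48.7%, 57.5% and 57.0%. Relative to that median every member on day 2 and day 4 stayed below 0. The day 4 calls of Cebpb and Cebpd held in all 15 alternatives, and that of Cebpg was lost in 7. The alternatives reuse libraries on which the members were chosen, so this is a description. Cebpb gained a day 2 call with DESeq2, the block, the split covariate, without the 7 and without EXP replicate 2. Cebpd gained a day 2 call in 2 of 14 alternatives, and Cebpg a day 1 call in 1 of 18.

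Called genes without the 7 libraries numbered 697 on day 1, 1084 on day 4 and 51 for dependence on the day. Rises on day 1 were then 0 for relatives and partners, 2 for regulators, 1 for acute-phase, 0 for adipogenic and 5 for amino acid response genes, and falls 0 for relatives and 0 for regulators. The fit without the 7 has a single CTRL library on day 1. On day 4, 2 relatives and 1 regulator fell and 0 amino acid response genes did, while 0 regulators and 1 adipogenic gene rose. Dependence on the day was called for 0 relatives, 0 regulators, 0 acute-phase, 2 adipogenic and 1 amino acid response genes. The day 1 libraries set apart alone gave 2403 calls, with 1 relative and 5 regulators rising and 1 relative, 2 regulators and 0 adipogenic genes falling. The split as a covariate gave, on day 1, 1 relative rising and 1 relative, 3 regulators and 2 adipogenic genes falling.

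Library totals without TMM gave 4631 calls on day 2. On day 1, 1 relative and 1 regulator fell; on day 2, 6 regulators and 12 amino acid response genes rose and 1 regulator fell; on day 4, 3 regulators and 9 amino acid response genes rose and 2 relatives, 3 regulators and 0 amino acid response genes fell. Without a filter, 1 relative rose and 1 fell on day 1, and on day 2, 1 regulator fell and 2 adipogenic genes rose. DESeq2 gave 2606 day-dependent genes, 4 adipogenic falls on day 1, 4 regulator falls on day 2 and 2 amino acid response falls on day 4. DESeq2 size factors in edgeR gave 2 adipogenic falls on day 1.

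Deviations of same-numbered libraries of the arms correlated at -0.066 to 0.16 on day 1, -0.062 to -0.0033 on day 2 and 0.080 to 0.15 on day 4. Differently numbered libraries were not compared, so whether the arms were paired cannot be told from these values. With the replicate number as a block (20 libraries, 7 residual degrees of freedom), 1 relative rose and 2 adipogenic genes fell on day 1, 4 regulators fell on day 2, and 4 adipogenic genes rose and 0 amino acid response genes fell on day 4. Dependence on the day was then called for 407 genes, with 1 relative, 1 regulator, 0 acute-phase, 1 adipogenic and 3 amino acid response genes. The same libraries without the block gave 794.

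Leaving out 1 library gave 891 to 2177 calls on day 2, 1633 to 5011 on day 4 and 898 to 2572 for dependence on the day. On day 1, 1 to 2 relatives rose and 1 to 2 fell, and 2 to 5 regulators, 1 to 4 adipogenic and 0 to 1 amino acid response genes fell. On day 2, 1 to 3 relatives and 1 to 2 regulators fell, and 1 to 6 adipogenic and 2 to 7 amino acid response genes rose. On day 4, 2 to 4 relatives, 1 to 7 regulators and 0 to 7 amino acid response genes fell, and 0 to 2 regulators rose. Dependence on the day covered 2 to 5 relatives, 1 to 5 acute-phase and 5 to 9 adipogenic genes. With 22 to 145 counts per library, Cebpa is the member that depth limits most.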
